A study of Rattus norvegicus with 10 samples.

Results

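Cdh2 and Pdcd10 are 2 genes of cell contacts, and both were read on microarrays of rat lung from septic shock and control animals. Each was found through a RefSeq accession printed beside a catalogue probe of the array, NM_031333 for Cdh2 and NM_001009542 for Pdcd10, and each had 1 such probe, A_44_P349475 and A_43_P19174. They are 2 of 30 genes that could be named by accession, on an array of 38804 probes other than controls. The chromosomal place of the probes is not printed, because the probe design refers to another rat genome build than the RefSeq gene table (GRCr8) that gave the names. The files used here hold no probe sequence.

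The study measured lung RNA of male Wistar rats aged 8 weeks on single-colour Agilent arrays, 1 array per sample. The LPS group (n = 5, replicates 1, 3, 5, 6 and 7) came from rats in which septic shock had been brought about with lipopolysaccharide, the surface glycolipid of Gram-negative bacteria. The control group (n = 5, replicates 15, 16, 17, 18 and 20) is labelled as control only. The sources used here do not give its treatment, nor the dose, route and time of LPS. Whether every sample was a different rat is not stated, so that the p-values describe the variation among these samples, which may be technical.

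Cdh2 encodes N-cadherin, a classical cadherin that spans the membrane and binds the same protein on a neighbouring cell in the presence of calcium. Inside the cell it is tied to actin through catenins. In the lung it is known from mesenchymal and muscle cells and from contacts between endothelial cells and pericytes. Pdcd10 encodes a small adaptor protein, also called CCM3, that works with KRIT1 and CCM2 in the cerebral cavernous malformation complex and binds kinases of the STK24, STK25 and STK26 family. In endothelium this complex is known for keeping cell junctions and vessel walls stable.

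The arrays lay on 3 slides, as read from the header's scan stamp. Slide 1 held LPS replicates 6 and 7, slide 2 held control replicates 15 to 18, and slide 3 held LPS replicates 1, 3 and 5 with control replicate 20. Slide and group overlap in large part, and a comparison within a slide sets 3 LPS arrays against 1 control. Per array, 90.1% to 93.8% of spots were flagged by the scanner software as well above background. The signal at the 75th percentile, by which each array was scaled, ranged from 265 to 333 over the slide 2 arrays and from 366 to 474 elsewhere. Control replicate 20 stood apart from the other controls in both directions. It was the lowest control on 44.3% of the tested probes and the highest on 32.2%. Among the 29 named genes that were tested it was the lowest control on 26. Group differences that are tested are therefore given with and without it. Without it all controls lay on slide 2 and all LPS arrays elsewhere, so group and slide cannot be told apart.

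The label of the tissue could not be checked against the arrays. Of 47 markers of 15 cell types listed for lung and its neighbouring tissues, only Map2 and Dlg4 had a named probe, and both were listed as markers of neurons and nerve. Both fell: Map2 by 0.67 on the log2 scale (limma adjusted p = 0.00695) and Dlg4 by 0.59 (limma adjusted p = 0.0362). Without control replicate 20 these differences were -0.79 and -0.77, and with slide as a block they were -0.20 and 0.055, with limma adjusted p values of 0.581 and 0.889. Their part in the results for Cdh2 and Pdcd10 was not tested. No named probe stood for endothelium, alveolar epithelium, fibroblasts, smooth muscle, mesothelium or blood cells. In whole lung tissue, fewer cells of a type and less RNA per cell cannot be told apart, and neither could be measured here for the cells that carry Cdh2 or Pdcd10.

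Cdh2 rose in LPS lungs. Values are log2 signals relative to the 75th percentile of the same array, each the mean of 10 spots. In the control group Cdh2 was at 2.91, 3.25, 3.46, 3.54 and 3.15 in replicates 15, 16, 17, 18 and 20. In the LPS group it was at 4.45, 4.23, 4.21, 3.65 and 4.04 in replicates 1, 3, 5, 6 and 7. Every LPS array lay above every control, with LPS replicate 6 only 0.11 above control replicate 18, and 7.13% of all tested probes showed the same separation. The group means were 4.12 ± 0.30 (SD, n = 5) in LPS and 3.26 ± 0.25 (SD, n = 5) in control lungs. The difference was 0.85 ± 0.17 (SE) on the log2 scale, a 1.80-fold rise with a 95% interval of 1.40 to 2.33, with an adjusted p of 0.00401 in limma.

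**Figure D1:**
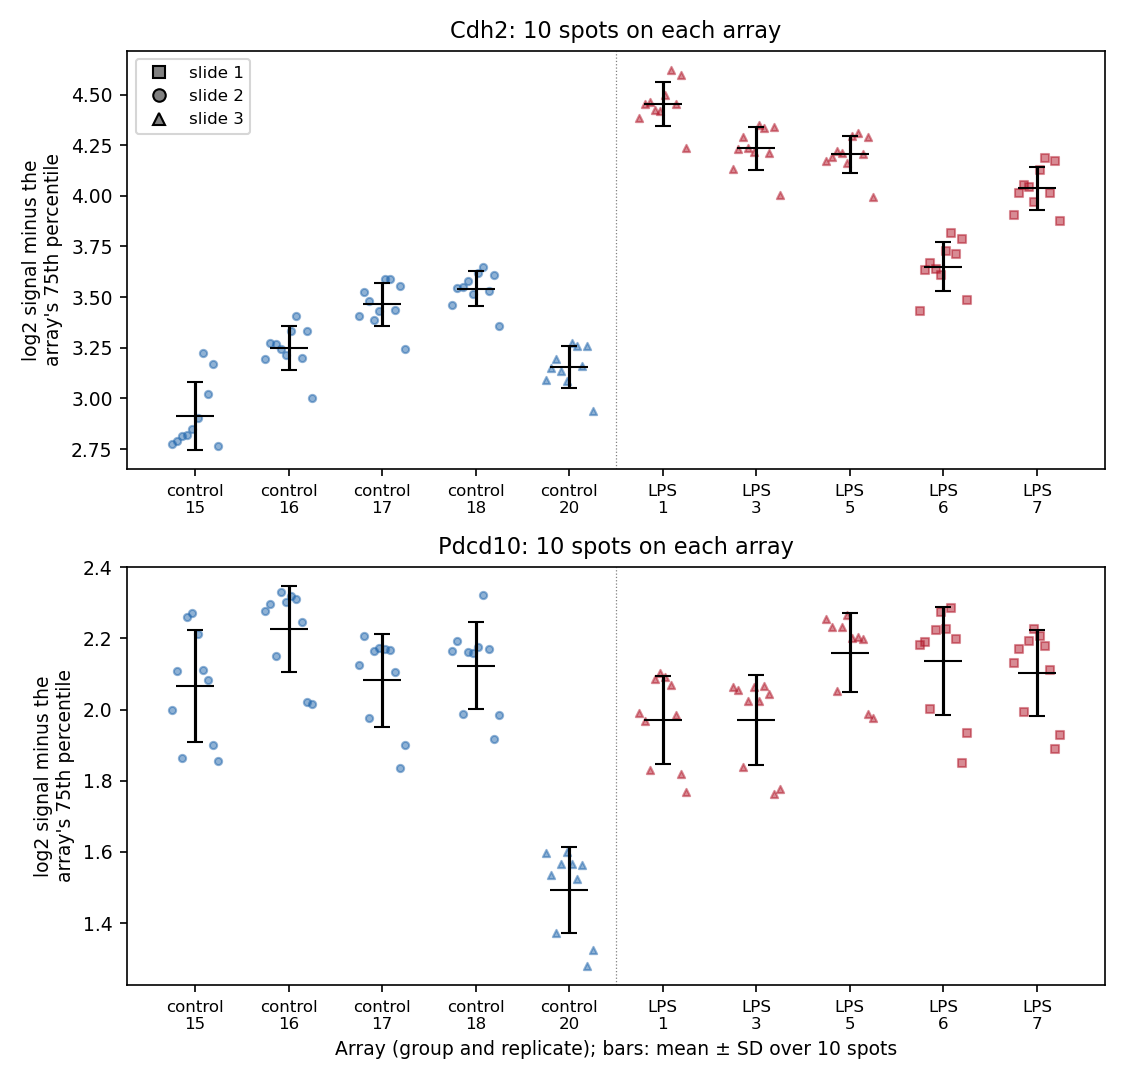
Log2 signal relative to the array's 75th percentile (vertical axis) on each of the 10 arrays (horizontal axis) for Cdh2 above and Pdcd10 below, where each small symbol is 1 spot (10 per array, its shape giving the slide) and the bars are the mean ± SD over spots. The Cdh2 means of the LPS arrays run from 3.65 to 4.45, above the controls at 2.91 to 3.54, while the Pdcd10 means overlap and control replicate 20 lies at 1.49, below all others.

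The background against which this call is read is wide. Of 36020 tested probes 11897 passed an adjusted p of 0.05, which is 33% of them, 5425 higher and 6472 lower in LPS lungs. After normexp background correction the split was 3544 higher and 14026 lower. Without any scaling between arrays it was 13481 higher and 1292 lower. The call alone therefore sets Cdh2 apart little, since 15.1% of tested probes were called higher and 18% lower. Its size was less common: 4.89% of tested probes had a log2 difference at least as high as that of Cdh2, and the median over all tested probes was -0.054. Among the 29 named genes that were tested Cdh2 had the second highest difference, after the growth factor Fgf2, both with and without control replicate 20. With slide as a block it had the fourth highest, after Fgf2, Ptk2b and the inflammasome sensor Nlrp3. For Nlrp3 the difference was -0.27 without the block (limma adjusted p = 0.545) and -0.63 without control replicate 20 (limma adjusted p = 0.00488). Its blocked value rests on control replicate 20, at -6.33, where the slide 2 controls were between -4.70 and -4.34.

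**Figure D2:**
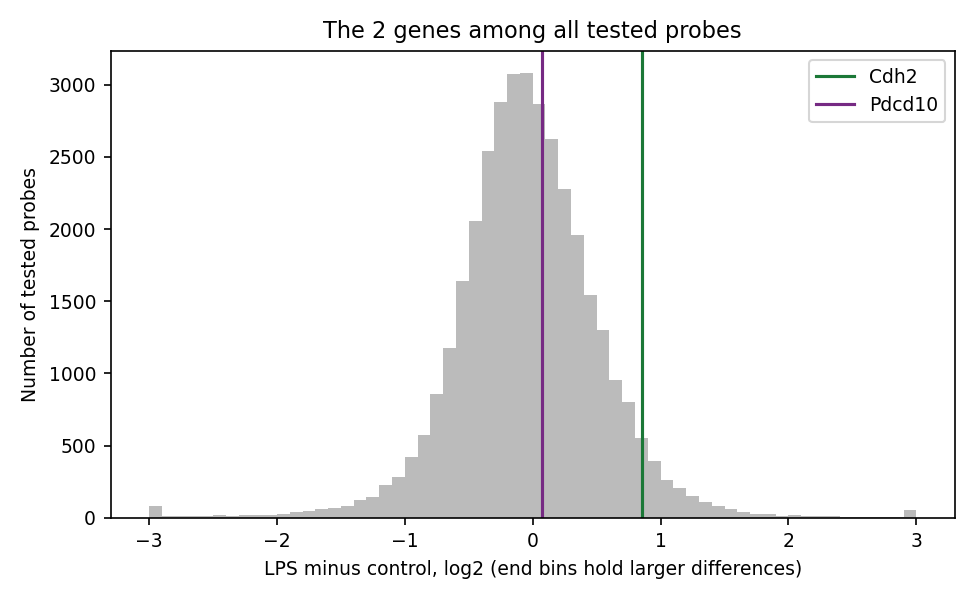
Number of tested probes (vertical axis) in bins of the log2 difference between LPS and control (horizontal axis; the outermost bins also hold larger differences), with vertical lines for the 2 genes. Cdh2 lies at 0.85, on the upper flank where 4.89% of the 36020 probes were as high or higher, and Pdcd10 lies at 0.070, near the median of -0.054.

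The Cdh2 signal was strong, and its spots repeated closely. All 100 Cdh2 spots were well above background, none was saturated and none was marked as an outlier. The median spot signal was 119 to 504 times the local background, depending on the array. Before scaling, the processed signal averaged 7605 ± 1009 (SD, n = 5) in LPS and 3110 ± 587 (SD, n = 5) in control arrays. The lowest LPS array was at 5972 and the highest control at 3892, so the groups were apart before scaling. This was not particular to Cdh2, as the unscaled Pdcd10 signals were also apart (1439 against 1402). How many of all tested probes were apart before scaling was not counted. In the limma fit without scaling, 37.4% of tested probes were called higher in LPS arrays. The SD between the 10 spots of an array ran from 0.085 to 0.17 on the log2 scale. These spots are technical repeats of 1 hybridisation, and they are not replicates of the condition.

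Part of the scatter between spots belonged to the place on the array rather than to the sample. Averaged over both groups, the Cdh2 spots ranged from 3.49 to 3.84 between positions. Taken at 1 position at a time, the difference between LPS and control ran only from 0.82 to 0.88, and at 9 of the 10 positions every LPS array exceeded every control. Of the 50 LPS spots, 45 lay above the highest of the 50 control spots. These counts restate the separation of the same 10 arrays and add no samples, and they were not counted for other probes.

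**Figure D3:**
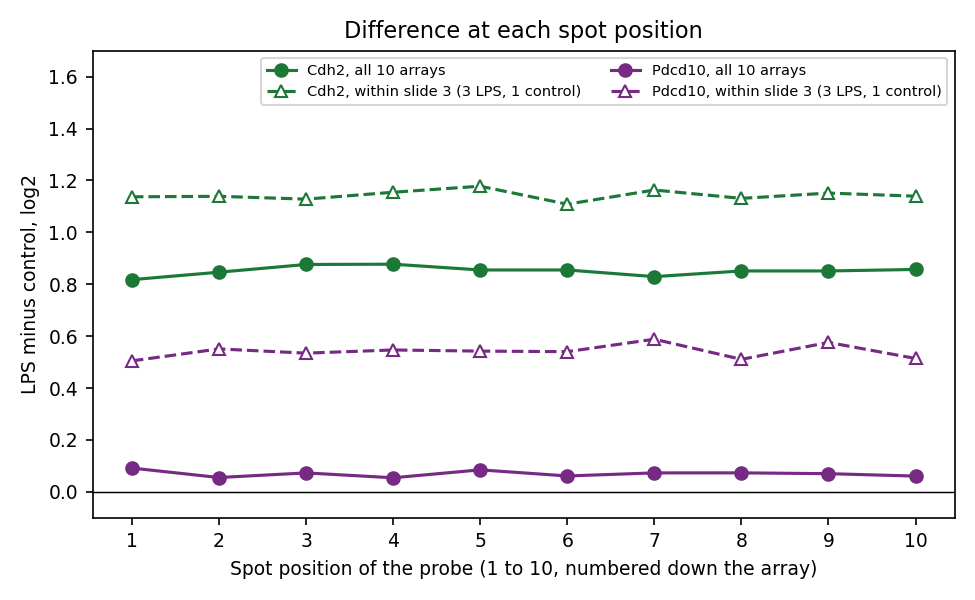
Difference between the group means, LPS minus control, on the log2 scale (vertical axis) at each of the 10 spot positions of the 2 probes (horizontal axis), over all 10 arrays (filled circles) and within slide 3 (open triangles, 3 LPS arrays against 1 control). Cdh2 stays between 0.82 and 0.88 over all arrays and between 1.11 and 1.18 within slide 3, and Pdcd10 stays between 0.054 and 0.092 and between 0.50 and 0.59.

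The arrays could be ordered by Cdh2, and LPS arrays took the highest 5 places. LPS replicate 1 was highest, followed by LPS replicates 3, 5, 7 and 6, then control replicates 18, 17, 16, 20 and 15. Of the 9 steps between neighbours in this order, 3 were smaller than the SD between spots: LPS replicates 3 and 5, control replicates 18 and 17, and control replicates 16 and 20. The step from LPS replicate 6 to control replicate 18, at 0.109, was hardly larger than the spot SD of 0.105, and the other steps exceeded it. This sets the steps against single spots. The SE of an array's mean over its 10 spots was smaller, at 0.027 to 0.053.

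The rise of Cdh2 was also present within slide 3. There the 3 LPS arrays averaged 4.30 ± 0.14 (SD, n = 3) and control replicate 20 was at 3.15, a difference of 1.14 and a 2.21-fold level. With slide as a block in limma, in a fit where slide 3 alone informs the comparison, the adjusted p was 0.0235, and 9.94% of tested probes passed in that fit. In a limma fit of slide 3 alone it was 0.0489, at the edge of the threshold, with 2.29% of probes passing. These p-values rest on 1 control array, whose own spread could not be seen and is assumed to be like that of the others. Within the LPS group Cdh2 averaged 0.45 higher on slide 3 than on slide 1, and no control lay on slide 1.

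The Cdh2 difference remained without control replicate 20, in a fit where all controls lay on slide 2 and no LPS array did. In such a fit group and slide cannot be told apart. Without that array the difference was 0.82, a 1.77-fold level, and the limma adjusted p stood at 0.00244. For Cdh2 control replicate 20 was 0.14 below the mean of the slide 2 controls, which is less than the SD of 0.28 (n = 4) between those controls. In that fit 54.6% of all tested probes passed, and 7.83% had at least the rise of Cdh2.

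Pdcd10 did not pass the threshold. In the control group it was at 2.07, 2.23, 2.08, 2.12 and 1.49 in replicates 15, 16, 17, 18 and 20. In the LPS group it was at 1.97, 1.97, 2.16, 2.14 and 2.10 in replicates 1, 3, 5, 6 and 7. The LPS values lay inside the range of the controls, and control replicate 20 was lowest of all 10 arrays. The means were 2.07 ± 0.091 (SD, n = 5) in LPS and 1.999 ± 0.29 (SD, n = 5) in control lungs. The difference was 0.070 ± 0.14 (SE) on the log2 scale, a ratio of 1.05 with a 95% interval of 0.85 to 1.30, and the limma adjusted p was 0.722. Of all tested probes, 88.7% had a difference at least this large in either direction.

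Pdcd10 was measured with nearly the precision of Cdh2. All 100 of its spots were well above background, with no saturated and no outlier spot, and the median spot signal was 57.6 to 132 times the local background. The SD between spots was 0.11 to 0.16 on the log2 scale. In the order of arrays, 8 of the 9 steps between neighbours were smaller than the SD between single spots, while the SE of an array's mean was 0.035 to 0.050. The remaining step, of 0.48, separated control replicate 20 from LPS replicate 1.

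What Pdcd10 showed depended on control replicate 20. The slide 2 controls averaged 2.12 ± 0.072 (SD, n = 4), and control replicate 20 was 0.63 below them. Before scaling its Pdcd10 signal was 1231, against 1244 to 1402 on the slide 2 controls. Its 75th percentile, which sets the scaling, was 436, against 265 to 333 on those arrays. A gap of this size was thus seen only after scaling. Without control replicate 20 the difference between LPS and control was -0.056. The 95% interval of the ratio was then 0.844 to 1.096 and the limma adjusted p 0.594. Within slide 3, where control replicate 20 is the only control, the LPS arrays averaged 0.54 higher, a 1.45-fold level. With slide as a fixed block this passed in limma, at an adjusted p of 0.0468. It did not pass in the limma fit of slide 3 alone (adjusted p = 0.162) or with slide as a random block, where the difference was 0.34 and the adjusted p 0.208. The last fit called 8.68% of tested probes. A gap of this size in control replicate 20 was frequent: 18.1% of tested probes were at least as far below the slide 2 controls on that array. Its part in the result was measured only by leaving the array out.

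Scaling bears on both genes. Without scaling between arrays the log2 difference was 1.30 for Cdh2 and 0.52 for Pdcd10, with limma adjusted p values of 0.000371 and 0.0192. The median of all tested probes was then 0.40 higher in LPS arrays. Relative to that median Cdh2 was 0.91 higher and Pdcd10 0.12 higher. Scaling cannot change these values, because it shifts all probes of an array by the same amount. The unscaled Pdcd10 signal averaged 1850 ± 314 (SD, n = 5) in LPS and 1277 ± 71 (SD, n = 5) in control arrays, and the lowest LPS array, at 1439, lay above the highest control, at 1402. That separation was absent after scaling. The share of all tested probes with such a separation before scaling was not counted, and 37.4% were called higher in the limma fit without scaling.

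**Figure D4:**
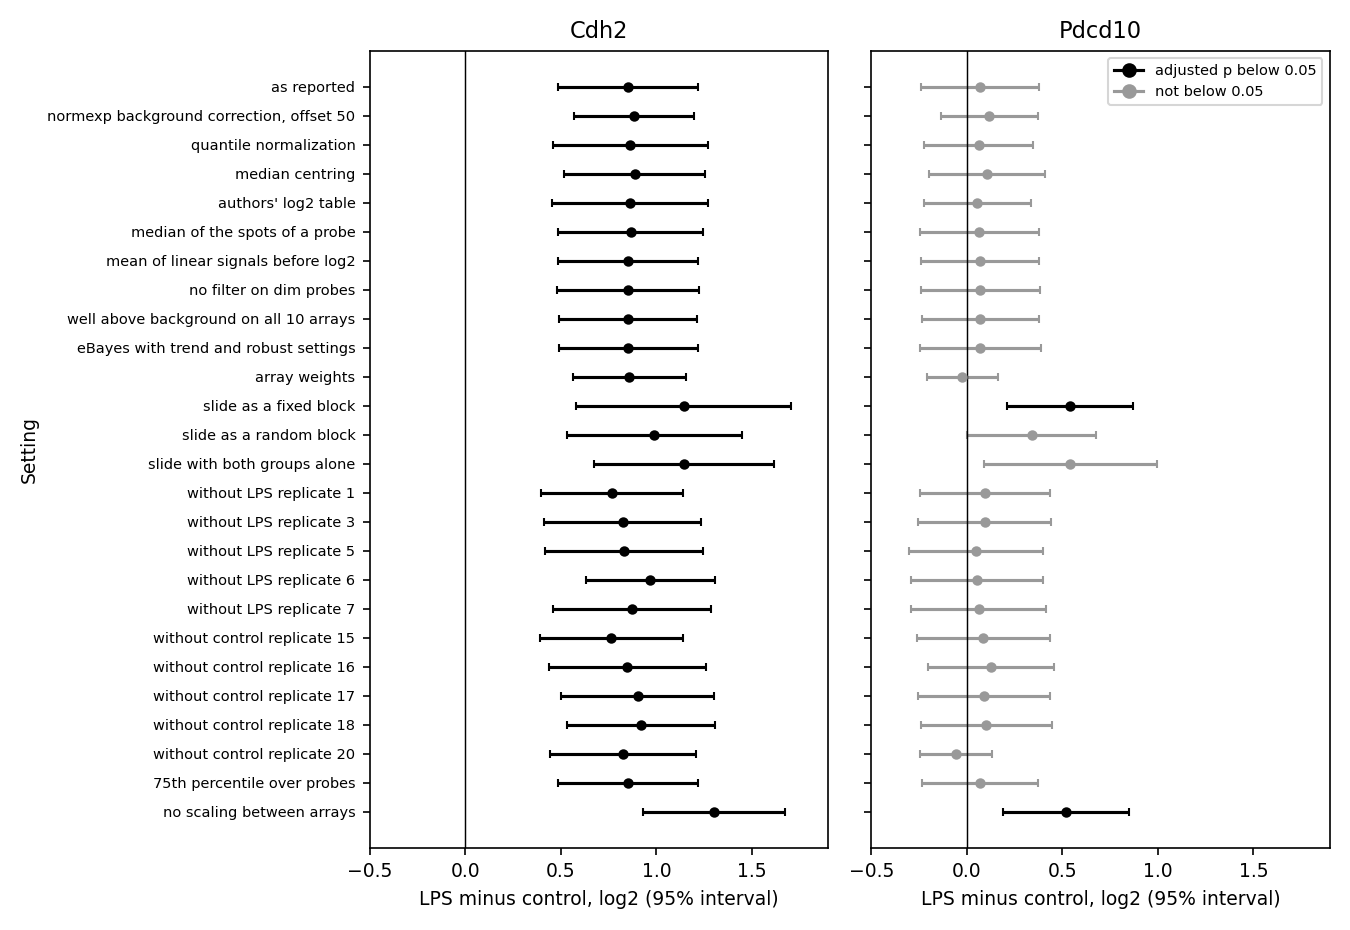
Log2 difference between LPS and control with its 95% interval from limma (horizontal axis) under each setting (vertical axis), for Cdh2 on the left and Pdcd10 on the right, in black where the adjusted p was below 0.05 and in grey where it was not. Cdh2 is black under all settings shown, from 0.76 to 1.30, and Pdcd10 is black only with slide as a fixed block (0.54) and without scaling between arrays (0.52).

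A comparison within arrays asked whether the 2 genes changed unequally, since the scaling of an array cancels in the ratio of its own signals. The log2 signal of Cdh2 minus that of Pdcd10 was 0.85, 1.02, 1.38, 1.42 and 1.66 in control replicates 15, 16, 17, 18 and 20. In LPS replicates 1, 3, 5, 6 and 7 it was 2.48, 2.26, 2.05, 1.51 and 1.93. The groups overlapped through 1 pair, LPS replicate 6 and control replicate 20. The level of this ratio has no meaning of its own, because probes of different genes differ in brightness, and only its change between groups is read. The mean was 2.05 ± 0.37 (SD, n = 5) in LPS and 1.27 ± 0.33 (SD, n = 5) in control lungs. The difference of 0.78 had a 2-sided exact permutation p of 0.0159 over 252 assignments, where 0.00794 is the smallest p that 5 against 5 allows. The permutation treats the arrays as exchangeable and takes no account of slide, which overlaps with group in large part. Taken over all arrays, Cdh2 was 1.72-fold higher relative to Pdcd10 in LPS than in control lungs. Without control replicate 20 the difference was 0.88, with an exact permutation p of 0.0159. Within slide 3 it was 0.60.

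**Figure D5:**
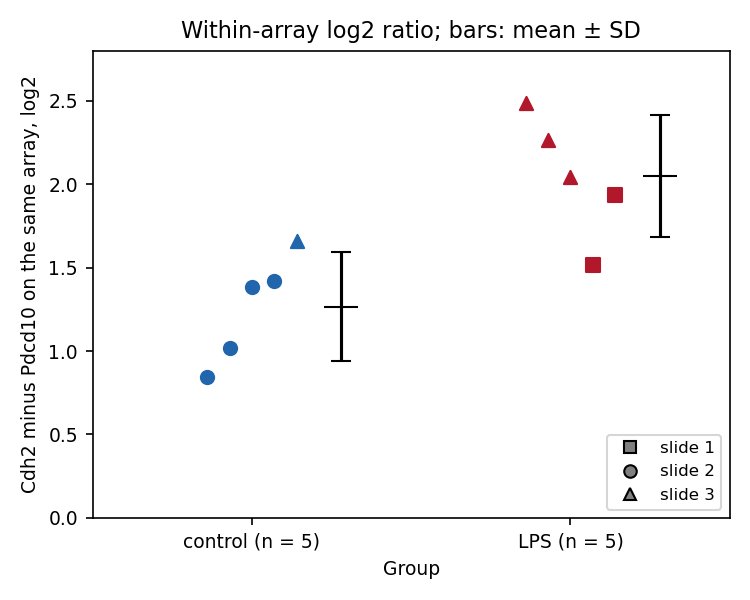
Log2 signal of Cdh2 minus that of Pdcd10 on the same array (vertical axis) in control and LPS arrays (horizontal axis, n = 5 each), with symbol shape for the slide and bars for the mean ± SD. The LPS arrays lie between 1.51 and 2.48 and the controls between 0.85 and 1.66, so that only LPS replicate 6 and control replicate 20 overlap.

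The profile of each gene was set against the 28 other named genes by the root mean square difference over the 10 arrays, after each profile was centred on its own mean. Nearest to Cdh2 were Napepld, an enzyme that releases N-acylethanolamines from membrane lipid, at 0.29, Nat1, an arylamine acetyltransferase, at 0.39, and Ndfip2, an adaptor of ubiquitin ligases, at 0.41. The Cdh2 profile itself had a root mean square of 0.49 about its mean, so the last pair was only a little nearer to Cdh2 than a flat line. Napepld averaged -1.42 ± 0.19 (SD, n = 5) in LPS and -2.03 ± 0.35 (SD, n = 5) in control arrays. Nearest to Pdcd10 were Ndfip1, another such adaptor, at 0.10, Pop7, a subunit of RNase P and RNase MRP, at 0.12, and Cse1l, the export receptor of importin alpha, at 0.13. The Pdcd10 profile had a root mean square of 0.19. All 3 shared its one marked feature: control replicate 20 was at 2.35 for Ndfip1, 1.94 for Pop7 and 2.73 for Cse1l, against means of 2.98, 2.37 and 3.08 in the slide 2 controls. The choice by likeness favoured genes with this feature, so it is no separate result. It was also common, as control replicate 20 was the lowest control on 26 of the 29 named genes. Without that array the same 3 genes were nearest to each of the pair. The Pdcd10 profile then had a root mean square of only 0.079, below its distance of 0.105 to Cse1l, the nearest gene.

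Few partners of these genes could be read. Of 64 genes in 9 lists of junction components and regulators, 4 had a named probe: Cdh2, Pdcd10, Ptk2b and Dlg4. Of these, 1 rose and 1 fell, beside 15.1% and 18% of all tested probes, so a count over 4 genes says nothing of the lists. Cdh2 was the only named member of the 7 cadherins, and Pdcd10 was the only one of the 10 genes listed for the cerebral cavernous malformation complex. No catenin, tight junction, desmosome, gap junction or endothelial adhesion gene was named, so their levels were not analysed here. Ptk2b, a kinase related to focal adhesion kinase, differed by 0.25 ± 0.32 (SE) on the log2 scale, with a limma adjusted p of 0.558. Dlg4, a membrane scaffold best known from synapses, fell by 0.59 on a dim probe as given above, with an SE of 0.19. Without control replicate 20 the Ptk2b difference changed sign, to -0.049 (limma adjusted p = 0.862), and that of Dlg4 was -0.77 (limma adjusted p = 0.000316). In the fit blocked by slide the differences were 1.25 for Ptk2b (limma adjusted p = 0.0452) and 0.055 for Dlg4, so both calls turned with the block. The blocked values rest on control replicate 20, which was at -3.25 for Ptk2b where the slide 2 controls averaged -1.75.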

How the data were processed

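Lung RNA in 5 LPS and 5 control samples was hybridised to single-colour arrays. The authors deposited linear spot intensity values as Agilent Feature Extraction 11.0.1.1 wrote them to the scanner files, background-subtracted and detrended, per the file headers. Software flags for background and outliers, deposited as 0 or 1, are other values. The authors also deposited log2 values for each probe, whose columns share 1 median of 6.18, and which followed the log2 scanner values (Pearson's r across probes 0.994 to 0.996, slope 0.938 to 0.987). The direction is that of the signal and the slope is near that of a log2 scale. How else they were made is unknown.

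The values used were log2 of the processed signal minus log2 of each array's 75th percentile over 41800 noncontrol spots. Outlier spots were left out and spots of a probe averaged. Of 38804 probes, 126 were left out for outlier spots and 2658 as not well above background on at least 5 arrays. The 36020 others entered a fit in limma 3.58.1 (R 4.3.3, lmFit and eBayes on the groups, 2-sided, Benjamini-Hochberg over all of them, threshold 0.05). The limma step was checked on simulated data with noise drawn independently for each array, so the check does not cover slides. The genes and lists were chosen with earlier results of these data known. Named genes were Cdh2 and Pdcd10, junction list members with a named probe, and the 3 genes with the nearest profile to each. Fgf2, Map2 and Nlrp3 were named for context, after their values were seen. Alternatives were background correction, scaling, spot averaging, filters, variance models, slide blocks (random block by duplicateCorrelation, statmod 1.5.0) and leaving out each array. The number of arrays limits the precision.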

Additional observations from a re-analysis of the deposited data

Results flagged for a closer look

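Control replicate 20 was marked for Pdcd10: its gap to the next control was 0.782 of the range of the control group, which is large for 5 values. This was 1 of 6 sets of 5 values examined (Cdh2, Pdcd10 and their within-array ratio in each group). Chance marks about 1 in 20 such sets. The 10 Pdcd10 spots of that array ran from 1.28 to 1.60, so its low value did not come from a single spot. Before scaling its mean Pdcd10 signal was 1231, close to 1244, 1255 and 1254 in control replicates 16, 17 and 18.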

How the results depend on the processing

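Cdh2 kept its direction and its call under all 25 alternatives (with slide as a fixed block and on slide 3 alone the p-values rest on 1 control array), at log2 differences from 0.76 to 1.30 and limma adjusted p values from 0.000214 to 0.0489, and from 0.76 to 0.97 when arrays were left out one at a time. The within-array change of Cdh2 against Pdcd10 kept both under the 16 alternatives with a test. The exact permutation p values ran from 0.00794 to 0.0317 and take no account of slide. Its direction was kept within slide 3 (0.60, no test), and leaving out arrays gave 0.67 to 0.92. Some alternatives could not move an estimate. Median centring cancels in the within-array ratio, and dim-probe filters and eBayes settings act only on the Cdh2 p-value. The fixed block and slide 3 alone share 1 Cdh2 estimate (1.14). Pdcd10 passed with slide as a fixed block (0.54) and without scaling (0.52, an alternative added after the data were seen), and its sign turned with array weights (-0.023) and without control replicate 20 (-0.056, the lowest value among the arrays left out, up to 0.13). Over all probes 21951 passed with array weights, 3580 with the fixed and 3127 with the random slide block, 826 on slide 3 alone, and 7898, 7926 and 19654 without control replicates 17, 18 and 20 (7898 to 19654 over all arrays left out). The percentile over probes in place of spots and the nearest profiles without control replicate 20 were also added after the data were seen. The planned normexp correction used median signals, which the files hold. No paired analysis was possible because no replicate number occurs in both groups.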
